A study of Zea mays with 18 samples.

Results

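The miR395 family was followed in leaf 4 of maize seedlings (Zea mays, hybrid ADA313) after warm or chilled nights, zone by zone from the meristem through the elongation zone to the mature zone. Members were all array probe sets named zma-miR395, whatever the arm of the hairpin. There were 20 such probe sets among the 228 maize miRNA probe sets of the table, and they came from 15 miRNA genes. Probe sets that shared all their values were counted once, which left 8 distinct profiles of 147. The rule used names and no measured value, but every probe set of the table, these included, has a p-value of 0.040982 or less over all conditions in the authors' deposited table, so each member was preselected for some difference between groups.

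Control seedlings had 16 h days at 25 °C and 8 h nights at 20 °C, under 15000 lux and at a relative humidity of 70%. The chilled plants differed in their nights, which were at 4 °C. Each of the 6 groups, formed by the night temperature and the zone, had 3 arrays, which the labels call biological replicates. The labels do not give the length of the chilling, the way a zone was cut or whether seedlings were pooled, and all plants were of 1 hybrid. The table holds miRNAs, so no marker genes of the zones could be looked up.

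miR395 is the sulfate miRNA of plants. Its 3p arm is the guide strand, which pairs with messenger RNAs of ATP sulfurylases, the enzymes that activate sulfate for assimilation, and, in Arabidopsis, of a low-affinity transporter that moves sulfate between root and shoot. In that plant its level is low when sulfate is plentiful and climbs when sulfate is short. The 5p arm is the strand opposite the guide in the hairpin and is usually degraded.

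The family fell into 3 profiles of 3p arms and 5 profiles of 5p arms. The first 3p profile was shared by 11 probe sets, miR395a, b, d, e, f, g, h, i, j, n and p, and is called the shared 3p profile below. The second was shared by 3 probe sets, miR395c, l and m, and the third was miR395o-3p alone. Each of the 5p probe sets, miR395b, c, i, l and n, had a profile of its own. Members with identical values cannot be told apart by this array, so 11 probe sets that moved together are 1 measurement.

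The profiles were set beside the arrangement of the genes in the maize B73 annotation (RefSeq, assembly Zm-B73-REFERENCE-NAM-5.0), which lists 15 miR395 genes and matched 14 of the 15 genes of the table (all but miR395j). The genes form 3 groups of direct neighbours, with 0 other annotated genes between members of a group. The group of 8 genes holds miR395a, b, d, e, f, g, h and i, whose 3p arms all had the shared 3p profile. The group of 4 genes holds miR395c, l and m, which had the second 3p profile, beside miR395k, which was not analysed here. The group of 3 genes holds miR395n and p, with the shared 3p profile, on either side of miR395o, with the third profile.

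Levels are the authors' bi-weight averages of log2 array signal over the 3 arrays of a group, a mean that gives distant values less weight. The table holds no value of a single array, so the spread between arrays was recovered from the deposited p-value over all conditions, and each SE below is such a recovered SE. All adjusted p-values are from the limma moderated test, with Benjamini-Hochberg adjustment across the 228 probe sets of a contrast and a threshold of 0.05. Levels of different probe sets also depend on their probes, so the order of signal between members is not an order of abundance. An average under log2 2 is called low here, which is a working limit and not one from the authors. Between 48 and 91 of the 147 profiles were under it in a group.

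The shared 3p profile had the highest signal of the family, and its mean over the 6 groups ranked 17 among the 147 profiles. In control leaves zma-miR395a-3p, zma-miR395b-3p, zma-miR395d-3p and the 8 other members averaged 9.51 (meristem), 10.62 (elongation zone) and 10.54 (mature zone). After chilled nights the averages were 8.30, 10.31 and 10.20 along the leaf, and the recovered SE of an average was 0.25 (n = 3 arrays). Both meristem averages lay under all 4 averages of the older zones. In the order of the levels the 4 averages from 10.62 down to 10.20 did not differ from their neighbours beyond the spread (adjusted p from 0.573 to 0.850). The step from 10.20 to the control meristem at 9.51 did not pass (adjusted p = 0.0864), and the step from there to the chilled meristem at 8.30 did (adjusted p = 0.0491).

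The miR395c/l/m-3p profile had averages of 5.20, 7.41 and 6.88 in the control meristem, elongation zone and mature zone. Its chilled averages were 4.77, 6.62 and 7.01, with an SE of 0.55 (n = 3 arrays). It had the same low place of the meristem as the shared 3p profile, and the correlation between them over the 6 averages was r = 0.93, a description over averages from the same arrays. No step between neighbours in its order of levels passed (adjusted p from 0.142 to 1).

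From meristem to mature zone, zma-miR395o-3p averaged 2.53, 3.75 and 2.75 in control leaves and 1.90, 3.38 and 1.81 in chilled leaves (SE 0.24, n = 3 arrays). It was highest in the elongation zone at both night temperatures, and the chilled meristem and chilled mature zone were under the low limit. No step between neighbours in its order passed (adjusted p from 0.141 to 0.821).

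Among the 5p arms, miR395i-5p had the highest signal. Along the control leaf it averaged 5.22, 6.31 and 1.27, against 3.67, 6.0 and 1.33 along the chilled leaf (SE 0.76, n = 3 arrays). Both mature zone averages were low. The averages of miR395b-5p were 2.48, 3.18 and 1.15 along the control leaf and 1.45, 4.04 and 1.11 along the chilled leaf (SE 0.49, n = 3 arrays). It too was highest in the elongation zone and low in the mature zone, and it was low in the chilled meristem.

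The other 5p arms were at or near the low limit throughout. For miR395n-5p the averages were 1.27, 1.29 and 1.05 along the control leaf and 1.24, 2.05 and 1.13 along the chilled leaf, so that 1 of its 6 averages was over log2 2. All 6 averages were low for miR395l-5p, from 0.88 to 1.21, and for miR395c-5p, from 0.92 to 1.20. An FDR p-value under 0.05 was given to 6 of the 8 profiles (16 of 20 probe sets) and to 204 of all 228 probe sets in the authors' deposited table, and the exceptions were miR395c-5p (0.071631) and miR395c/l/m-3p (0.075676).

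**Figure D1:**
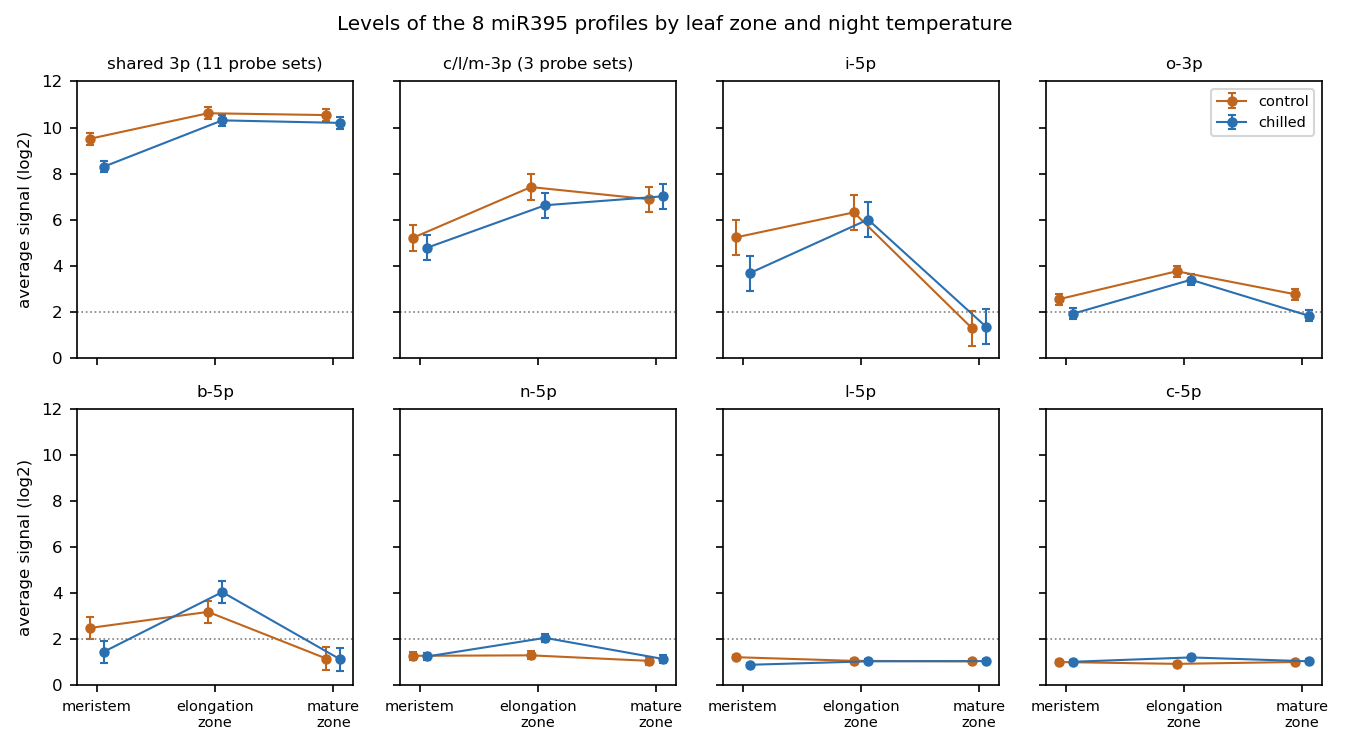
Average signal (log2, y axis) of the 8 miR395 profiles in the meristem, elongation zone and mature zone (x axis) of control (orange) and chilled (blue) leaves; bars are the recovered SE of an average over 3 arrays and the dotted line is log2 2. The shared 3p profile lies between 8.30 and 10.62 in all groups, while miR395i-5p stands at 5.22 and 6.31 in the younger control zones and at 1.27 in the mature zone.

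From the meristem to the elongation zone of control leaves, the 3p arms of miR395 rose. In the shared 3p profile the level went from 9.51 to 10.62, a difference of 1.11 (SE 0.35, 95% interval 0.35 to 1.87, adjusted p = 0.0244), or 2.16-fold. The miR395c/l/m-3p profile went from 5.20 to 7.41 (2.21, SE 0.78, adjusted p = 0.0299). For miR395o-3p the level went from 2.53 to 3.75 (1.22, SE 0.34, adjusted p = 0.0132), a rise that did not pass with quantile normalization (0.66, adjusted p = 0.126, and 0.00659 to 0.126 over the 8 alternatives).

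In that contrast 15 of the 20 miR395 probe sets were called, all higher, against 46.5% of all probe sets called and 35.1% called higher. Counted as profiles, 3 of 8 were called, all 3p arms, beside 36.1% of the 147 profiles, so the share of profiles is near the background. The median difference was 0.90 over the miR395 profiles and 0.05 over all profiles. None of the 5p profiles passed under limma, adjusted or at an unadjusted p under 0.05, which 51.8% of all probe sets had. The difference was 1.09 for miR395i-5p (95% interval -1.21 to 3.39) and 0.70 for miR395b-5p (95% interval -0.77 to 2.17).

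In chilled leaves the shared 3p profile rose over the same step from 8.30 to 10.31 (2.01, SE 0.35, 95% interval 1.25 to 2.77, adjusted p = 0.000297), or 4.03-fold. The chilled step exceeded the control step by 0.90 (SE 0.50), which did not pass (adjusted p = 0.591). Each of these rises passed under all 8 alternatives at both night temperatures, but with quantile normalization the chilled rise was 1.15 and its excess over the control step 0.09. A rise from 1.90 to 3.38 in miR395o-3p (1.48, SE 0.34, adjusted p = 0.00179) did not pass with quantile normalization (0.49). Of the 5p arms, miR395b-5p rose from 1.45 to 4.04 (2.59, SE 0.69, adjusted p = 0.0049), and miR395n-5p from 1.24 to 2.05 (0.81, SE 0.24, adjusted p = 0.0116). Neither 5p rise passed with quantile normalization (1.54 and 0.21). These 5p rises, like that of miR395o-3p, start at low signal in the chilled meristem.

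The miR395c/l/m-3p profile stood at 4.77 and 6.62 in these chilled zones and did not pass (1.85, SE 0.78, adjusted p = 0.0575). Neither did miR395i-5p at 3.67 and 6.0 (2.33, SE 1.07, adjusted p = 0.0806). In this contrast 14 of 20 miR395 probe sets and 4 of 8 profiles were called, all higher, beside 51.8% of all probe sets called, 36.8% called higher and 44.9% of all profiles called. All 8 miR395 profiles had a difference above 0, with a median of 1.67 against 0.13 over all profiles. They include miR395l-5p and miR395c-5p, which were low in all 6 groups, and the share of all profiles above 0 was not recorded.

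Between the elongation zone and the mature zone, miR395o-3p and some 5p arms were lower in mature tissue, with directions that depended on the scaling in part. In control leaves the shared 3p profile stood at 10.62 and 10.54 (-0.08, 95% interval -0.84 to 0.68, adjusted p = 0.850), and in chilled leaves at 10.31 and 10.20 (-0.11, 95% interval -0.87 to 0.65, adjusted p = 0.830). With median subtraction these differences turned to 1.21 and 3.56, since that scaling takes the median of all 228 probe sets as fixed. That median was 6.0, 5.87 and 4.58 along the control leaf and 5.86, 5.85 and 2.18 along the chilled leaf, so a member that stayed level here stood higher against it. Over the 147 distinct profiles the median was 3.33, 3.44 and 1.68 in control and 3.23, 3.78 and 1.55 in chilled leaves.

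The miR395i-5p level fell from 6.31 to 1.27 in control leaves (-5.04, SE 1.07, 95% interval -7.34 to -2.74, adjusted p = 0.00244), and the fall passed under all 8 alternatives. In chilled leaves it fell from 6.0 to 1.33 (-4.67, SE 1.07, adjusted p = 0.00235) and did not pass with median subtraction (-1.0, adjusted p = 0.398, and 0.000862 to 0.398 over the 8 alternatives). The miR395b-5p level fell from 3.18 to 1.15 in control leaves (-2.03, SE 0.69, adjusted p = 0.0242), which did not pass under either scaling (-1.42 and -0.75). In chilled leaves it fell from 4.04 to 1.11 (-2.93, SE 0.69, adjusted p = 0.00263), a direction that turned to 0.74 with median subtraction. The mature levels of both 5p arms are low, so the differences end at low signal.

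The miR395o-3p level also fell, from 3.75 to 2.75 in control leaves (-1.0, SE 0.34, adjusted p = 0.0251) and from 3.38 to 1.81 in chilled leaves (-1.57, SE 0.34, adjusted p = 0.00169), but both directions turned under median subtraction (0.29 and 2.10) and under quantile normalization (1.34 and 1.70). The miR395n-5p level fell from 2.05 to 1.13 in chilled leaves (-0.92, SE 0.24, adjusted p = 0.00593), which turned to 2.75 with median subtraction and did not pass with quantile normalization (-0.24). In control leaves 3 of 20 probe sets and 3 of 8 profiles were called, all lower, beside 49.6% of all probe sets called, 42.1% called lower and 53.7% of all profiles called. In chilled leaves 4 of 20 probe sets and 4 of 8 profiles were called, all lower, beside 64.9% of all probe sets called, 54.8% called lower and 71.4% of all profiles called. The median difference was -0.39 over the miR395 profiles and -0.59 over all profiles in control leaves, and -0.54 and -0.86 in chilled leaves.

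With the meristem and the mature zone set against each other, the shared 3p profile rose by 1.03 in control leaves (SE 0.35, 95% interval 0.27 to 1.79, adjusted p = 0.0214) and by 1.90 in chilled leaves (SE 0.35, 95% interval 1.14 to 2.66, adjusted p = 0.000305). Both rises passed under all 8 alternatives, though their size did not hold, at 2.44 and 5.58 with median subtraction. The miR395c/l/m-3p profile rose in chilled leaves, from 4.77 to 7.01 (2.24, SE 0.78, adjusted p = 0.0182), also under all 8 alternatives, with 5.93 under median subtraction and 3.48 under quantile normalization. In control leaves it stood at 5.20 and 6.88 and did not pass (1.68, 95% interval 0.02 to 3.34, adjusted p = 0.0741).

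The miR395i-5p level went the other way in control leaves, from 5.22 to 1.27 (-3.95, SE 1.07, adjusted p = 0.00622), under all 8 alternatives and by -2.53 with median subtraction. In chilled leaves it stood at 3.67 and 1.33 (-2.34, SE 1.07, adjusted p = 0.0593), a difference that turned to 1.35 with median subtraction. Of the 20 probe sets 11 were higher and 1 lower in the control mature zone than in the meristem, beside 58.3% of all probe sets called, 19.3% higher and 39.0% lower. In chilled leaves 14 of 20 were higher and 0 lower, beside 77.6% called, 32.9% higher and 44.7% lower. Counted as profiles, 2 of 8 were called at each night temperature, beside 53.7% of all profiles in control and 72.1% in chilled leaves.

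**Figure D2:**
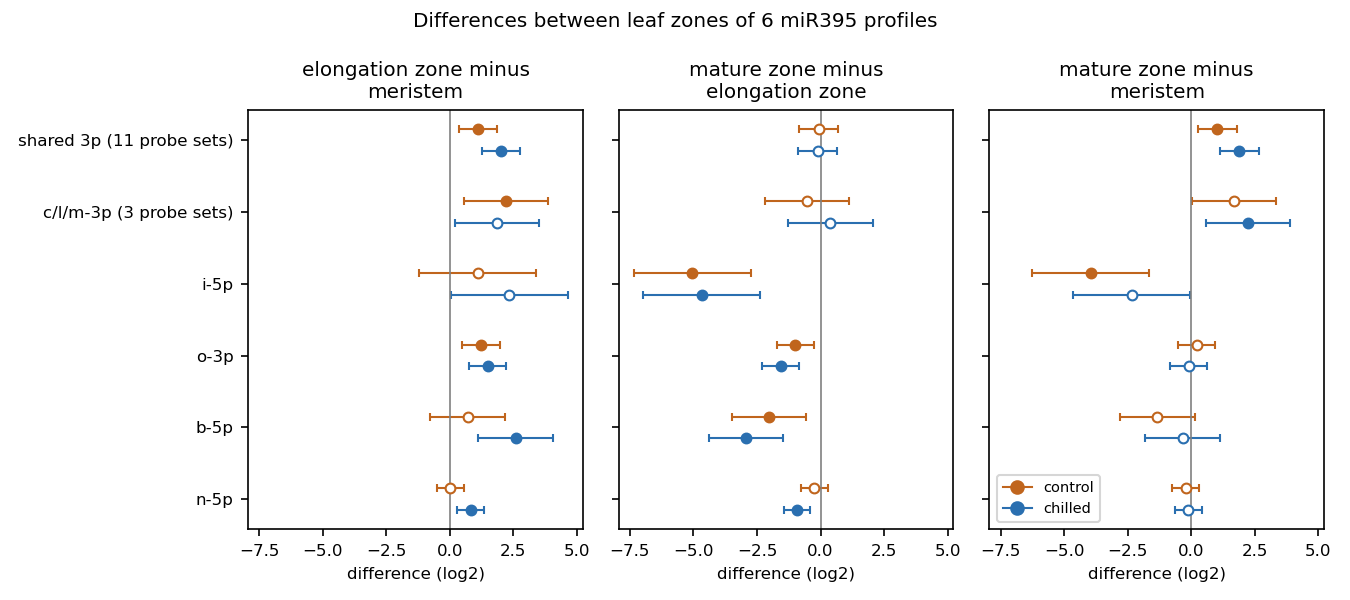
Differences between leaf zones (log2, x axis) of the 6 miR395 profiles that reach log2 2 in some group (y axis), in control (orange) and chilled (blue) leaves; bars are 95% intervals from recovered SEs and filled points have an adjusted p under 0.05. The shared 3p profile is higher in the elongation zone than in the meristem by 1.11 and 2.01 and level between elongation and mature zone, where median subtraction moves it to 1.21 and 3.56; miR395i-5p is lower in the mature than in the elongation zone by 5.04 and 4.67.

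The shared 3p profile was lower in the meristem of chilled leaves, with an adjusted p close to the threshold. It stood at 9.51 in control and 8.30 in chilled meristems, a difference of -1.21 (SE 0.35, 95% interval -1.97 to -0.45, adjusted p = 0.0491), or 2.31-fold lower. Of the 8 alternatives only the 2 scalings change the averages, so the direction was at stake in those alone. It stayed the same in both, at -0.48 with quantile normalization and -1.07 with median subtraction, but neither passed. Over the 8 alternatives the adjusted p ran from 0.0141 to 0.655 and passed in 3 of them. When each profile was entered once, so that the 11 identical probe sets no longer counted 11 times in the adjustment, the adjusted p was 0.0748.

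The remaining profiles were not called in the meristem. The miR395c/l/m-3p profile stood at 5.20 and 4.77 (-0.43, 95% interval -2.09 to 1.23) and miR395o-3p at 2.53 and 1.90 (-0.63, 95% interval -1.36 to 0.10). The miR395i-5p level was 5.22 in control and 3.67 in chilled meristems (-1.55, 95% interval -3.85 to 0.75), and its recovered SD of 1.41 was the widest of the family. The miR395b-5p level was 2.48 and 1.45 (-1.03, 95% interval -2.50 to 0.44). The low 5p arms miR395l and c stood at 1.21 and 0.88 (adjusted p = 0.104) and at 1.0 and 1.01 (adjusted p = 0.963), and miR395n-5p at 1.27 and 1.24, with its difference of -0.03 turning to 0.11 under median subtraction.

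In all, 11 of the 20 miR395 probe sets were called in the meristem, all lower, beside 8.33% of all probe sets called and 6.58% called lower. These shares contain the 11 themselves, since 19 probe sets were called and 15 called lower in all. The 11 are 1 of 8 profiles, beside 5.44% of the 147 profiles, which is too few to read a difference from the background. The difference was under 0 in 7 of 8 miR395 profiles, with a median of -0.53 against -0.01 over all profiles. The 7 include miR395n-5p at -0.03 and the low miR395l-5p, and the share of all profiles under 0 was not recorded.

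In the elongation zone none of the 20 miR395 probe sets was called under limma, beside 0.877% of all probe sets, and 2 had an unadjusted p under 0.05, beside 15.4% of all. The level of the shared 3p profile was 10.62 in control and 10.31 in chilled leaves (-0.31, 95% interval -1.07 to 0.45), and miR395c/l/m-3p at 7.41 and 6.62 (-0.79, 95% interval -2.45 to 0.87). The 2 with an unadjusted p under 0.05 were low 5p arms, both higher in chilled leaves. They were miR395n-5p at 1.29 and 2.05 (0.76, SE 0.24, adjusted p = 0.117) and miR395c-5p at 0.92 and 1.20 (0.28, SE 0.11, adjusted p = 0.212). The miR395b-5p level was 3.18 and 4.04 (0.86, 95% interval -0.61 to 2.33). The median difference was -0.16 over the miR395 profiles and 0.04 over all profiles.

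In the mature zone none of the 20 was called under limma either, beside 14.0% of all probe sets, and 1 had an unadjusted p under 0.05, beside 20.2% of all. That was miR395o-3p, at 2.75 in control and 1.81 in chilled leaves (-0.94, SE 0.34, 95% interval -1.67 to -0.21, adjusted p = 0.0958), which turned to 1.46 with median subtraction. Levels of the shared 3p profile were 10.54 and 10.20 (-0.34, 95% interval -1.10 to 0.42, adjusted p = 0.663), and at 2.07 with median subtraction. The miR395c/l/m-3p profile was 6.88 and 7.01 (0.13, 95% interval -1.53 to 1.79), a difference that turned to -0.33 with quantile normalization. The median difference was 0.02 over the miR395 profiles and -0.01 over all profiles.

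**Figure D3:**
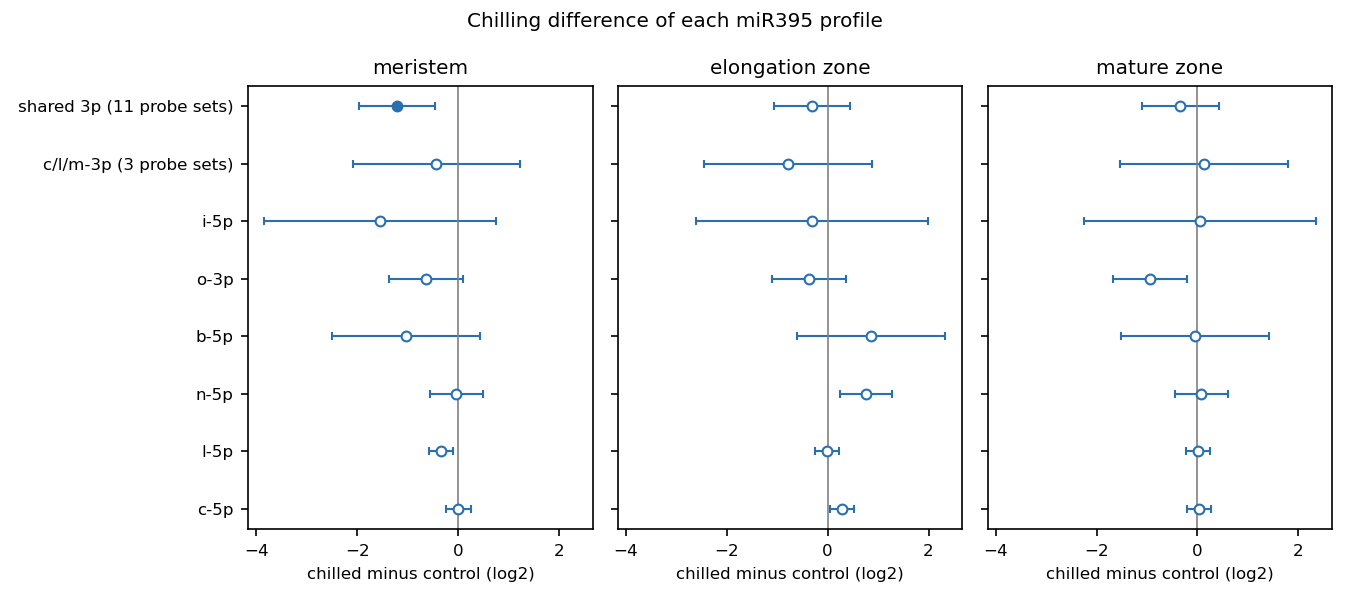
Chilled minus control difference (log2, x axis) of the 8 miR395 profiles (y axis) in each leaf zone; bars are 95% intervals from recovered SEs and the filled point has an adjusted p under 0.05. The shared 3p profile in the meristem, at -1.21, is the filled point, and its value is -0.48 with quantile normalization and -1.07 with median subtraction.

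A call in the meristem and none in the older zones does not show that the chilling effect differed between zones, so that difference was tested itself. For the shared 3p profile the effect was higher in the elongation zone than in the meristem by 0.90 (SE 0.50, 95% interval -0.17 to 1.97, adjusted p = 0.591, and 0.09 with quantile normalization) and in the mature zone than in the meristem by 0.87 (SE 0.50, 95% interval -0.20 to 1.94, adjusted p = 0.348). The moderated F test over both gave F = 2.10 (adjusted p = 0.455), and its adjusted p ran from 0.000123 with median subtraction to 0.995 over 7 alternatives. None of the 20 probe sets passed this limma F test or had an unadjusted p under 0.05 in it, beside 7.02% and 16.7% of all probe sets. The lowest unadjusted p among the 8 profiles was 0.0788, for miR395n-5p. The test thus does not separate a meristem response from one shared by the zones.

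Both arms were measured for 5 genes, miR395b, c, i, l and n. In the mature zone the 5p averages of all 5 genes were low, between 1.0 and 1.33, while their 3p averages were between 6.88 and 10.54. The 5p arms of miR395c and l were low in all 6 groups and that of miR395n in 5. Of the 147 profiles, 85 were low in the control and 91 in the chilled mature zone. Along the control leaf the averages of miR395i were 5.22, 6.31 and 1.27 for the 5p arm beside 9.51, 10.62 and 10.54 for the 3p arm. These 3p values are those of the shared profile, so they may come from any of its 11 members. Signals of different probes give no ratio of the arms, and a difference between the arms in their change along the leaf was not tested, since its error needs the values of single arrays.

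Outside the family, the 5 profiles of 139 with the highest Pearson correlation with the shared 3p profile over the 6 averages came from conserved families whose 5p arm is the guide. They were miR167a/b/c/d-5p (r = 0.874), which targets auxin response factors, and miR156k-5p (r = 0.861) with the miR156 profile of 10 probe sets led by miR156a-5p (r = 0.846), which target SPL transcription factors. Next came miR167e/f/g/h/i/j-5p (r = 0.809) and miR164a/b/c/d/g-5p (r = 0.803), whose family targets NAC factors. In control leaves miR167a/b/c/d-5p went from 7.62 in the meristem to 10.78 and 10.85 in the older zones, and in chilled leaves from 7.68 to 11.02 and 10.86. It did not have the lower chilled meristem of the shared 3p profile, and miR164a/b/c/d/g-5p stood at 10.82 in control and 10.41 in chilled meristems. With 6 averages such correlations describe the low place of the meristem.

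The other nutrient miRNAs of the table were set beside miR395 under chilling. The phosphate list holds 14 probe sets of miR399, which targets the PHO2 regulator of phosphate uptake, and miR827, which targets SPX-domain genes of phosphate handling. The copper list holds 10 probe sets of miR397, miR398, miR408 and miR528, which target copper proteins such as laccases and plantacyanins. Both lists hold 3p and 5p arms, and the targets named are those of the guide strand of each family. The arms were counted alike, so a call is not always one of a guide strand. In the meristem 3 phosphate and 6 copper members had an unadjusted p under 0.05 in the limma test. The share of all probe sets at that unadjusted limit was not recorded, so these counts cannot be read against a background. With adjustment limma called 0 phosphate members and 1 copper member, as higher, beside 8.33% of all probe sets. That was miR408b-5p, at 4.95 in control and 6.60 in chilled leaves (1.65, SE 0.44, adjusted p = 0.0491), a rise that passed in 4 of 8 alternatives. The miR408a/b-3p profile did not pass (1.36, adjusted p = 0.334). The median difference over profiles was 0.05 for phosphate, 1.36 for copper and -0.53 for miR395.

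In the elongation zone limma called none of either list, while 6 phosphate and 5 copper members had an unadjusted p under 0.05 (15.4% of all probe sets), and the medians were 0.15 for phosphate, 1.45 for copper and -0.16 for miR395. In the mature zone 4 phosphate members were higher and 1 lower, and 4 copper members were higher, beside 14.0% of all probe sets called. Counted as profiles, 2 of 12 phosphate profiles were higher and 1 lower, and 3 of 7 copper profiles were higher, beside 14.3% of all profiles called. The levels of miR398a-5p were 1.24 in control and 6.78 in chilled mature zones, a rise of 5.54 (SE 1.29, adjusted p = 0.00665). The control level is low, so the difference starts at low signal. The other miR398 profiles were not called there, with differences of -0.03 for miR398a/b-3p and 0.16 for miR398b-5p. The level of miR399d-3p fell from 3.83 to 1.46, under the low limit (-2.37, SE 0.43, adjusted p = 0.00135), which turned to 0.03 with median subtraction. It was the only called phosphate profile that fell. The 2 that rose were miR399a/c/h-3p (1.59, limma adjusted p = 0.000193) and miR827-5p (0.84, adjusted p = 0.00591). The medians were -0.06 for phosphate, 0.87 for copper and 0.02 for miR395. The differences between the lists were not tested.

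**Figure D4:**
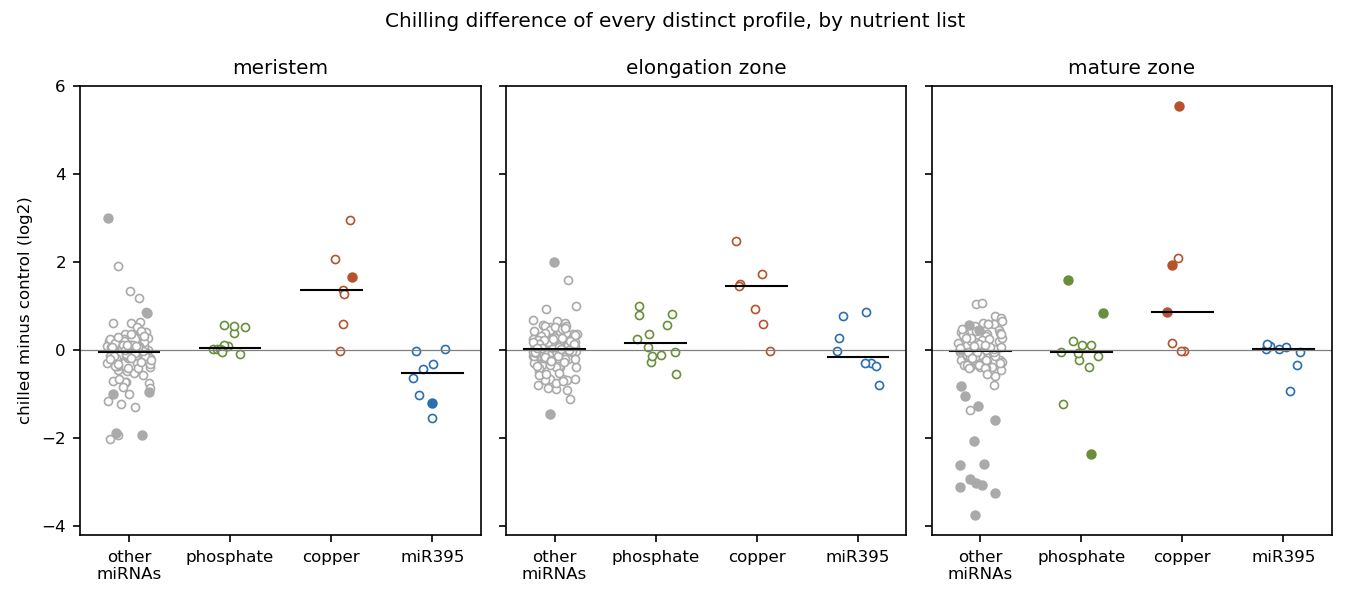
Chilled minus control difference (log2, y axis) of all 147 distinct profiles in each leaf zone, split into other miRNAs, the phosphate list (miR399, miR827), the copper list (miR397, miR398, miR408, miR528) and miR395 (x axis); filled points have an adjusted p under 0.05 and black lines are medians. In the meristem the medians are -0.53 for miR395 and 1.36 for copper; in the mature zone the shared 3p profile of miR395, at -0.34, moves to 2.07 with median subtraction.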

How the data were processed

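Total RNA (10 µg a sample, Trizol) was labelled with the FlashTag Biotin HSR kit, per the labels. The submitters' processing notes name Affymetrix Expression Console, and how it corrected, normalized and summarized the arrays is not given in the sources used here. Per the file headers, the authors deposited 6 group averages of log2 signal, an ANOVA p-value over all conditions and its FDR p-value.

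The planned fit of 18 single arrays could not be made from averages. Each ANOVA p was turned back into F (5 and 12 degrees of freedom) to recover the residual variance, which was moderated with squeezeVar of limma 3.58.1 in R 4.3.3 (prior degrees of freedom 1.945, total 13.94). Two-sided contrasts were adjusted over 228 probe sets. The recovery treats bi-weight averages as means and gives all groups the same spread, and the preselection on the ANOVA means that the adjustment does not strictly hold. Arrays give no read depth; their number limits the precision. The p-values set each difference against this recovered spread between arrays. Members and lists were chosen with earlier results of these data known. All miR395 profiles are named. The other named profiles are the 5 most correlated ones and, in each chilling contrast, the called profile with the largest difference of each nutrient list. Other miR398 and miR408 profiles are given beside the called ones of these families. The other called phosphate profiles of the mature zone are given beside miR399d-3p. Alternatives were 2 scalings, 2 priors, 1 probe set per profile, joint adjustment over 9 contrasts, a filter at log2 2 and the upper limit of the rounded p.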

Additional observations from a re-analysis of the deposited data

How the results depend on the processing

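Of the 19 differences called in miR395 profiles, 8 passed in the same direction under every alternative run: the rise of the shared 3p profile from the meristem to the elongation and to the mature zone at both night temperatures, the rise of miR395c/l/m-3p in 1 such contrast of each temperature, and both falls of miR395i-5p in control leaves. The chilling difference of the shared 3p profile in the meristem did not pass with quantile normalization (-0.48), median subtraction (-1.07), no moderation (adjusted p = 0.0734), the trended prior (0.0562) or 1 probe set per profile (0.0748), where the difference stayed -1.21 in the last 3, and over the 8 alternatives its adjusted p ran from 0.0141 to 0.655. The number of miR395 profiles called there, 1, was 0 with median subtraction, the trended prior or 1 probe set per profile and 2 with joint adjustment. It was 1 with quantile normalization or no moderation, where the profile called was not the shared 3p profile but miR395l-5p (-0.48 and -0.33, adjusted p = 0.0206 and 0.0463), whose adjusted p ran from 0.0206 to 0.389 over 7 alternatives and which was called with joint adjustment too. Of the 228 probe sets 19 were called there, against 3 with median subtraction, 4 with the trended prior and 26 with joint adjustment, and of the 147 profiles 8 were called, against 2 when each entered once. With joint adjustment 1 miR395 profile was called in the elongation zone and 1 in the mature zone, beside 23 and 39 of all 228 probe sets.

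Median subtraction moved the mature zone most, since the median of all probe sets is 2.18 there in chilled leaves and 4.58 in control leaves. That median counts probe sets with identical values separately. With each of the 147 distinct profiles counted once, the mature zone median was 1.55 in chilled and 1.68 in control leaves. Subtraction of that median was not run, so the shifts below hold for the median of all probe sets only. For chilled against control mature zones it gave 2.07 for the shared 3p profile, 1.46 for miR395o-3p and 2.37 for miR395b-5p, with 8 of 8 profiles called beside 204 of all 228 probe sets, and 0.11 for miR395n-5p in the meristem. From elongation to mature zone of control leaves it gave 1.21 for the shared 3p profile, 0.29 for miR395o-3p, 1.04 for miR395n-5p and 0.75 for miR395c/l/m-3p, with 5 profiles called beside 136 of 228 probe sets. In chilled leaves that step became 3.56, 2.10 and 2.75 for the first 3 and 0.74 for miR395b-5p. From meristem to mature zone it gave 0.08 for miR395b-5p and 1.20 for miR395n-5p in control leaves, and 3.60 for miR395o-3p, 1.35 for miR395i-5p, 3.34 for miR395b-5p and 3.57 for miR395n-5p in chilled leaves, with 7 profiles called at each temperature beside 185 and 208 of 228 probe sets. The chilling effect of the shared 3p profile then differed by 2.35 between mature and elongation zone and by 3.14 between mature zone and meristem (F = 21.4), with 6 and 8 profiles called beside 190 and 194 of 228 probe sets, against 5 and 19 without the subtraction. The difference of miR399d-3p became 0.03.

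Quantile normalization turned the chilling difference in the mature zone to 0.05 for miR395b-5p and -0.33 for miR395c/l/m-3p, and the control step to the elongation zone to -0.20 for miR395n-5p. From elongation to mature zone it gave 1.34 for miR395o-3p and 0.92 for miR395c/l/m-3p in control leaves, and 0.27 for the shared 3p profile and 1.70 for miR395o-3p in chilled leaves. Over the whole span in chilled leaves miR395o-3p became 2.18, and the chilling effect of the shared 3p profile between mature and elongation zone 0.27. The profiles called became 4 from meristem to mature zone at each temperature (beside 150 control and 177 chilled probe sets of 228), 2 from meristem to elongation zone in chilled leaves (beside 126) and 1 for the chilling effect between mature zone and meristem (beside 38). The causes were not tested. The upper limit of the rounded p changed no call.

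No paired analysis was possible because the table holds group averages and no column of a single array, and no replicate was left out for the same reason.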
